A study of Mus musculus with 3 samples.

Results

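The 9 genes described here are Ccnd1, Ccnd2, Ccnd3, Ccne1, Ccna2 and Ccnb1, which encode cyclins, Cdkn1a and Cdkn1b, which encode the inhibitors p21 and p27, and Mki67, which encodes the proliferation marker Ki-67. They were taken by their symbols from the 31054 features of the count tables, and each symbol matched 1 feature. Cells were dissociated from 3 wild-type male mouse embryos on a C57BL/6 x 129 SvEv background, harvested at embryonic day 8 and labelled as having up to 2 somites. The study reports that extraembryonic tissue was removed. Each embryo gave 1 single-cell library, and these 3 samples held no other genotype or treatment. The rule behind this choice of genes sets cells of the left-right organizer (LRO) and of the axial mesoderm, as non-dividing cells, against epiblast and mesoderm, as fast-dividing cells. The question is how far the transcripts of these genes follow that division.

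Cyclins bind and activate cyclin-dependent kinases, and each kind acts at its own stage of the cell cycle. D-type cyclins respond to growth signals in G1, cyclin E drives entry into S phase, cyclin A acts in S phase and G2, and cyclin B drives mitosis. p21 and p27 bind these kinases and slow or stop the cycle, and Ki-67 is present in cycling cells and lost in resting ones. The LRO, called the node in the mouse, is a small pit of ciliated cells that breaks left-right symmetry. Cilia of its central pit cells rotate, and those of its outer crown cells are immotile. A cilium is built on a centriole and is taken down before mitosis, so ciliated cells are usually outside the dividing phases.

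In GENCODE (release M21, GRCm38) Ccnd1, Ccne1 and Mki67 lie on chromosome 7 (144929931 to 144939925, 38097984 to 38107534 and 135689784 to 135716361), Ccnd2 and Cdkn1b on chromosome 6 (127125162 to 127152193 and 134920401 to 134925513), and Ccnd3 and Cdkn1a on chromosome 17 (47505051 to 47599691 and 29090976 to 29100727). Ccna2 lies on chromosome 3 (36564865 to 36572150) and Ccnb1 on chromosome 13 (100778650 to 100786570). RefSeq promoter sequences were at hand for 6 of the 9 genes. Those of Ccnb1 and Mki67 are shown because both genes were lower in LRO-like cells, and that of Cdkn1b because it moved the other way. Each is the stretch of up to 250 bases before the RefSeq start, 5′ to 3′ on the gene's strand, without bases inside the GENCODE gene. Capitals mark, on either strand, the CCAAT box, a general promoter element, and the CHR element (TTTGAA), found in promoters of many G2 and M phase genes.
Ccnb1, GRCm38.p6 chr13:100786571-100786736, minus strand: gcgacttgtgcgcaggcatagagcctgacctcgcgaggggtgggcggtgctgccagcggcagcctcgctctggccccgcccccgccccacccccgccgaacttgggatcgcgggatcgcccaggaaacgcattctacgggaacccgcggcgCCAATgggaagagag
Mki67, GRCm38.p6 chr7:135716380-135716629, minus strand: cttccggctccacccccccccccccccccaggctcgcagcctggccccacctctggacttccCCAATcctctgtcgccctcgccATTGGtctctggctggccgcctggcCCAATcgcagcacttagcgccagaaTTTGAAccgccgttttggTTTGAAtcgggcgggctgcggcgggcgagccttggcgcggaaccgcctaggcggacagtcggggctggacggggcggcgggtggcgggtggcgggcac
Cdkn1b, GRCm38.p6 chr6:134920151-134920400, plus strand: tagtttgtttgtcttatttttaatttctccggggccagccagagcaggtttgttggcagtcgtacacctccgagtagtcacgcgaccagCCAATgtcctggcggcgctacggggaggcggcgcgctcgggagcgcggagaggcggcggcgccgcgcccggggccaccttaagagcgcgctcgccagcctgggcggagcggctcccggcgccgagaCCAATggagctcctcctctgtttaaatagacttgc

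In the whole 250 bases, Mki67 held 3 CCAAT boxes and 2 CHR elements, Ccnb1 and Cdkn1b held 2 CCAAT boxes each, and no E2F motif (TTTCGCGC, TTTGGCGC or TTTCCCGC, or its complement) was found in any of these 3 windows. Among all 32851 RefSeq promoter windows of this length, 33.9% held a CCAAT box, 16.0% a CHR element and 1.53% the E2F motif. Ccne1 and Cdkn1a, which were also lower in LRO-like cells, held none of these motifs in their windows.

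Of 23533 barcodes, 21595 passed quality control, and 17149 of these were placed in 1 of 15 lineage classes by the share of each marker list that a cell had UMIs for. A UMI (unique molecular identifier) marks 1 captured transcript molecule. No cyclin or inhibitor was among the markers. The class of LRO-like cells held 55, 59 and 67 cells in embryos 1, 2 and 3, and that of axial-mesoderm-like (axial-like) cells held 29, 43 and 26. Caudal-epiblast-like cells (708, 787 and 646) and presomitic-mesoderm-like cells (325, 236 and 286) served together as the reference. T and Foxa2, genes of axial tissue that were not used for the scores, averaged 772 and 124 CPM (UMIs of a gene per 1000000 UMIs of the class) in LRO-like cells and 566 and 131 CPM in axial-like cells. In the reference classes T averaged 154 and 120 CPM and Foxa2 4.09 and 1.94 CPM, so genes outside the scores set both classes apart from the reference. Foxa2 also averaged 70.3 CPM in definitive-endoderm-like and 40.2 CPM in extraembryonic-endoderm-like cells, where T averaged 53.2 and 11.3 CPM. Both genes are shared by the LRO and the axial mesoderm and do not tell one from the other. Total UMIs per library ran from 149341900 to 207961733, and the libraries shared between 18 and 22 barcodes in pairs. LRO-like cells held a median of 18316 UMIs and axial-like cells one of 15039, against 22004 in caudal-epiblast-like cells and 20070 in presomitic-mesoderm-like cells. Shares of cells are therefore given after thinning each cell at random to 5000 UMIs. Cells with fewer UMIs were left out, that is 13 LRO-like and 5 caudal-epiblast-like cells and none of the other 2 classes. This left 54, 49 and 65 LRO-like cells of the 55, 59 and 67 in embryos 1, 2 and 3. Most of the loss was thus in embryo 2, whose LRO-like shares lack more of its shallow cells. No lineage is known to lack all of these genes, so the share of cells that free RNA in the droplets would give was not measured directly. The lowest shares found were the means of erythroid-like cells in embryos 2 and 3, 5.16% for Ccnd1, 0.58% for Cdkn1a and 2.59% for Cdkn1b. For these 3 genes they are upper limits of the mean share from free RNA in erythroid-like cells of these 2 embryos. The median depth of those cells was 14583 and 16204 UMIs, and that of axial-like cells 10578 and 10608. The limits were not measured for shallower cells and need not hold there. Embryo 1 held 2 erythroid-like cells and gave no limit.

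In LRO-like cells 8 of the 9 genes differed from the reference, against 30.8% of all 15379 genes tested. Cdkn1b and Ccnd1 were higher (16.2% of all genes were called higher), and Ccnd2, Ccne1, Ccna2, Ccnb1, Cdkn1a and Mki67 were lower (14.7% of all genes were called lower). Ccnd3 did not pass the test. For 7 of the 9 genes the CPM of the LRO-like cells lay outside the range of all 6 reference values, which held for 27.1% of all genes. Mki67, Ccna2 and Ccnb1 stood at 0.64, 0.64 and 0.60 times their reference level by the fit. Of the markers that set the LRO-like class, 6 are ciliary genes. Without them the class held 40, 29 and 30 cells, and the same 8 calls were made in the same directions, with 2.23 for Cdkn1b, 0.65 for Ccnd1, -0.73 for Ccnb1 and -0.58 for Mki67 (log2).

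**Figure D1:**
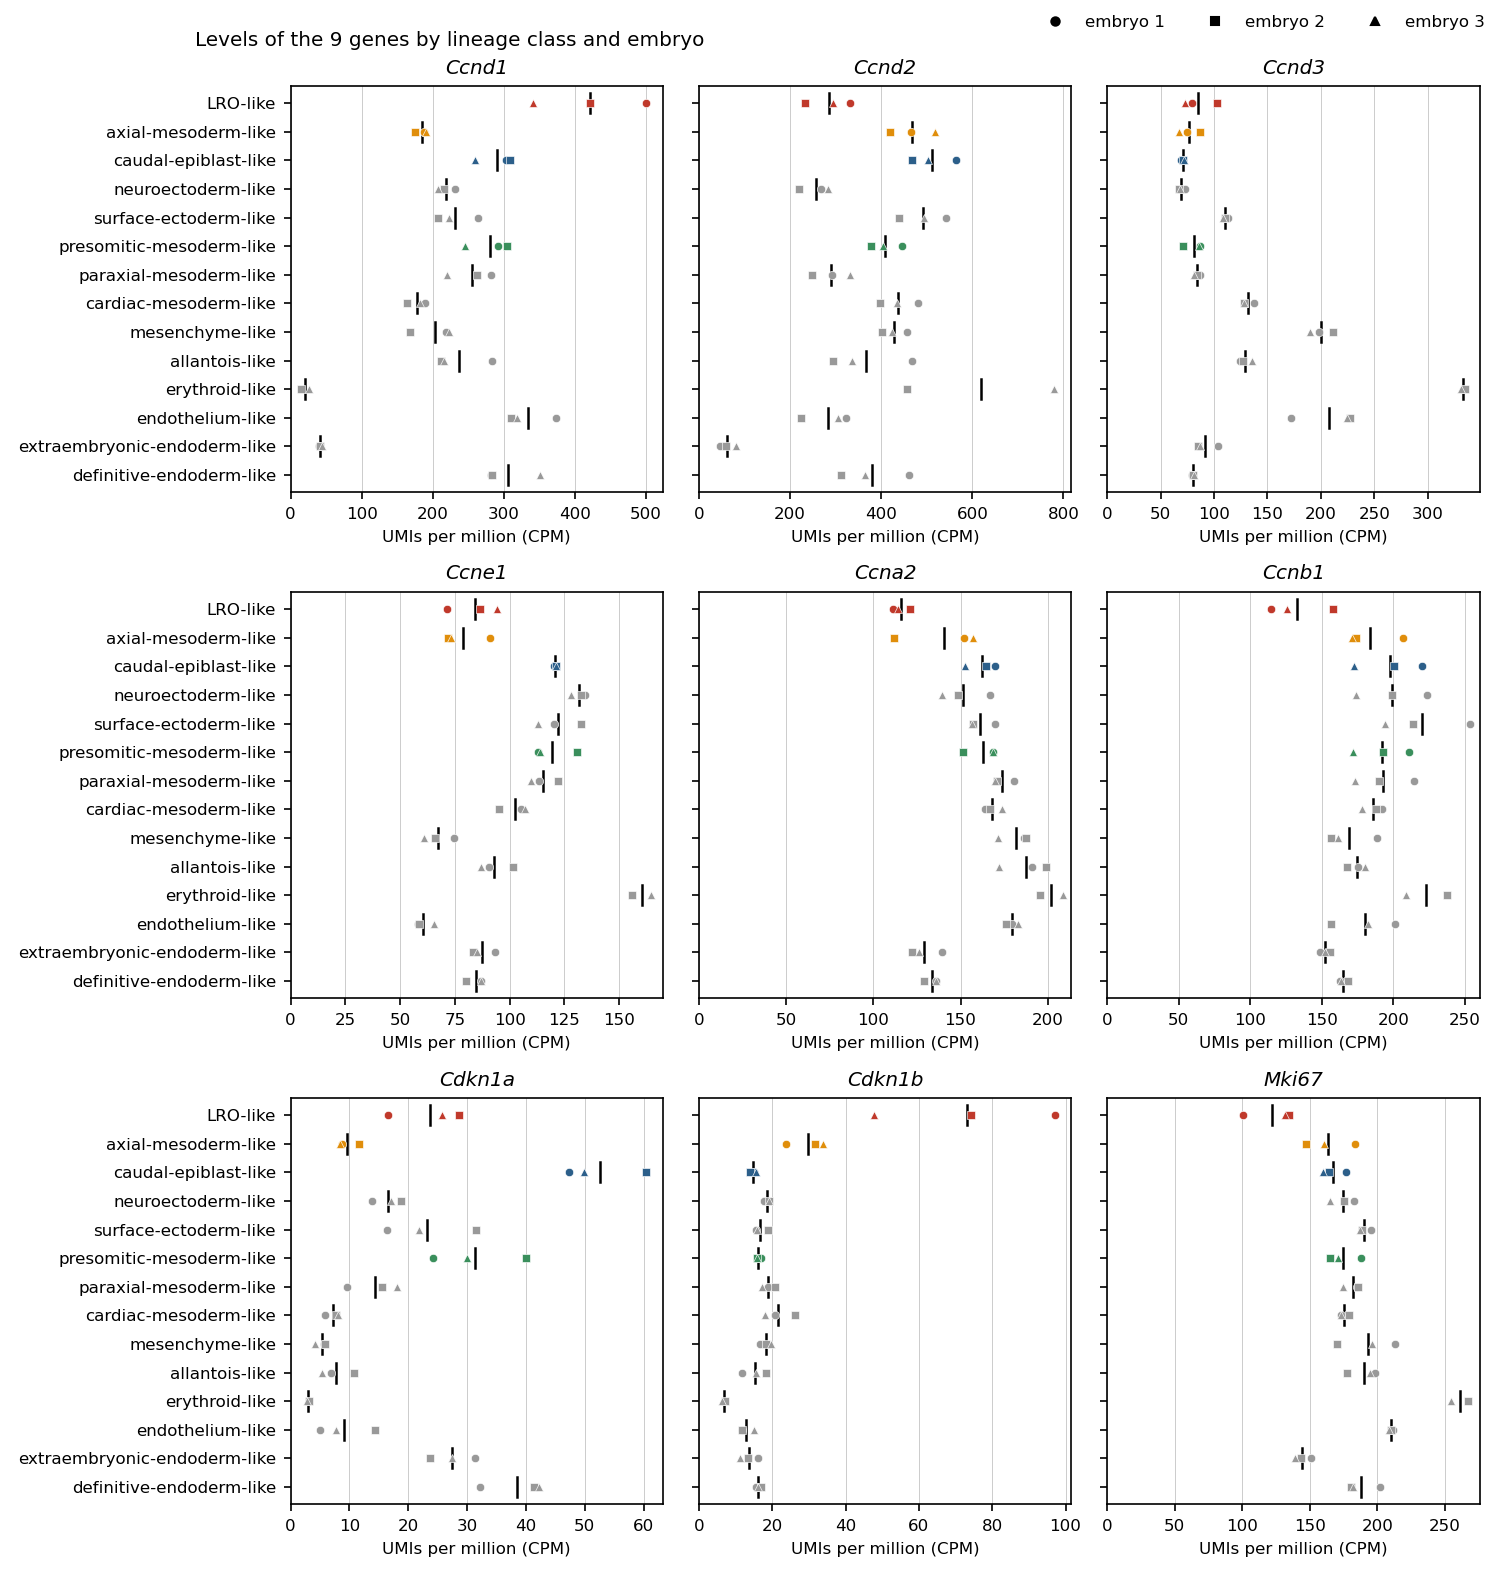
Level of each of the 9 genes in CPM (x axis, linear, from 0) in 14 lineage classes (y axis), with a point for each embryo and a line at the mean. Cdkn1b stands highest in LRO-like cells (47.8 to 97.0 CPM) and Ccna2, Ccnb1 and Mki67 have their lowest means of these classes there.

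Cdkn1b showed the widest separation. It stood at 97.0, 74.3 and 47.8 CPM in the LRO-like cells of embryos 1, 2 and 3. The reference values ran from 13.9 to 17.0 CPM, so the lowest LRO-like value lay far above the highest reference value. The fitted difference was 2.06 on the log2 scale (SE 0.15, edgeR adjusted p = 2.73e-14), a 4.17-fold higher level. After thinning, 35.9% ± 13.5 (SD, n = 3) of LRO-like cells had a Cdkn1b UMI, against 6.23% ± 0.81 of caudal-epiblast-like and 7.85% ± 1.72 of presomitic-mesoderm-like cells. The share was highest in embryo 1 (27 of 54 cells), with 34.7% in embryo 2 and 23.1% in embryo 3. Without thinning the mean share was 63.6% in LRO-like cells, and 29.0% and 27.8% in the reference classes.

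The D-type cyclins moved apart from each other. Ccnd1 was measured at 500, 421 and 341 CPM in LRO-like cells and at 245 to 308 CPM in the reference. Its values did not overlap, and the fitted difference was 0.39 (log2, SE 0.11, edgeR adjusted p = 0.00596). The call rested on embryo 1: without it the difference was 0.31 with an adjusted p of 0.103. Ccnd2 went the other way, with 333, 232 and 294 CPM in LRO-like cells and 379 to 565 CPM in the reference. The fitted difference was -0.83 (SE 0.16, edgeR adjusted p = 8.23e-05), and 51.8% ± 9.74 (SD, n = 3) of thinned LRO-like cells had a Ccnd2 UMI against 90.0% ± 1.92 and 81.3% ± 2.19 in the reference classes. Against paraxial-like cells, where Ccnd2 averaged 291 CPM, the difference was -0.20 and did not pass the test (edgeR adjusted p = 0.443). Ccnd3 was at 79.2, 103 and 72.9 CPM in LRO-like cells and at 69.2 to 86.9 CPM in the reference, with a difference of -0.02 and an interval of 2 SE from -0.22 to 0.18.

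The cyclins of the later phases and Mki67 were lower by similar amounts. Ccne1 was at 71.3, 86.7 and 94.3 CPM in LRO-like cells and at 113 to 131 CPM in the reference (difference -0.67, SE 0.09, edgeR adjusted p = 3.05e-07). Ccna2, the cyclin of S phase and G2, was at 112, 121 and 114 CPM against 151 to 170 CPM (-0.65, SE 0.08, edgeR adjusted p = 1.44e-08). Ccnb1, which drives mitosis, was at 114, 158 and 126 CPM against 172 to 220 CPM (-0.73, SE 0.11, edgeR adjusted p = 1.07e-06). None of these values overlapped with the reference. Mki67 was at 100, 134 and 131 CPM against 160 to 188 CPM (-0.65, SE 0.08, edgeR adjusted p = 4.02e-08). Within embryos 1, 2 and 3 the Mki67 difference was -0.85, -0.29 and -0.32 before TMM scaling. The standard errors and p-values use a spread shared by all classes, most of them larger, and do not measure the spread between embryos in LRO-like cells alone. In each of the 4 genes all 3 embryos were lower in LRO-like cells. The lowest Ccne1, Ccna2, Ccnb1 and Mki67 values of the LRO-like class were those of embryo 1, which had its highest Cdkn1b value.

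Cdkn1a did not follow Cdkn1b. It was at 16.5, 28.6 and 25.8 CPM in LRO-like cells, at 47.3 to 60.4 CPM in caudal-epiblast-like cells and at 24.1 to 39.9 CPM in presomitic-mesoderm-like cells. The LRO-like values overlapped with the presomitic ones and lay under all caudal-epiblast-like ones. The fitted difference was -0.94 (SE 0.28, edgeR adjusted p = 0.00925). With presomitic-mesoderm-like cells as the only reference it was -0.54 (edgeR adjusted p = 0.217), and with paraxial-like cells, which averaged 14.4 CPM, it changed sign to 0.53 (adjusted p = 0.225). Without embryo 3 the adjusted p was 0.0739.

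**Figure D2:**
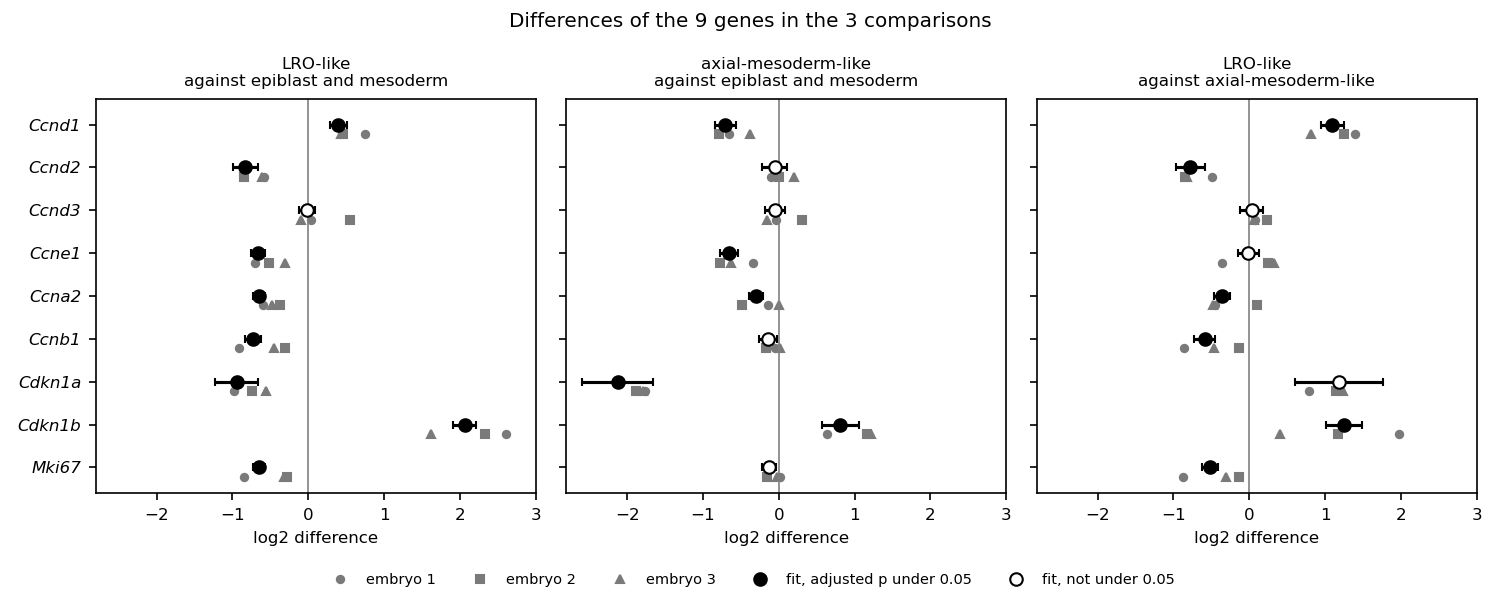
Log2 difference (x axis) of each gene (y axis) in the 3 comparisons, with the edgeR estimate and its standard error in black, filled where the adjusted p was under 0.05, and the difference within each embryo in grey. The grey values are of CPM before TMM scaling, and their mean lies above the estimate by 0.12 to 0.18 in the LRO-like panel. Cdkn1b is higher and Ccne1 lower in both LRO-like and axial-like cells, while Ccnd1 goes up in the first and down in the second.

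Axial-like cells showed another pattern. Of the 9 genes 5 differed from the reference, against 13.4% of all genes. Cdkn1b was higher (6.99% of all genes were called higher), and Ccnd1, Ccne1, Ccna2 and Cdkn1a were lower (6.39% of all genes were called lower). Mki67 (147 to 183 CPM) and Ccnb1 (171 to 207 CPM) overlapped with the reference, with differences of -0.13 (2 SE interval -0.30 to 0.05) and -0.14 (-0.37 to 0.09). The values of 4 genes, Ccnd1, Ccne1, Cdkn1a and Cdkn1b, did not overlap with the reference, which held for 23.8% of all genes. With 98 cells in all, this class had the fewest UMIs of the 4. Cdkn1a rested on 7, 7 and 3 of them, and Cdkn1b on 19, 19 and 12.

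Cdkn1a had its lowest values of these 4 classes in axial-like cells, at 8.72, 11.7 and 8.43 CPM, against 24.1 to 60.4 CPM in the reference (difference -2.12, SE 0.47, edgeR adjusted p = 0.00135). With paraxial-like cells as the reference this was -0.65 and not called (edgeR adjusted p = 0.546). Ccnd1 was at 188, 175 and 191 CPM (-0.70, SE 0.14, edgeR adjusted p = 0.000322), under every reference value. Ccne1 was at 91.0, 71.8 and 73.1 CPM (-0.65, SE 0.11, edgeR adjusted p = 5.34e-05). Cdkn1b was at 23.7, 31.7 and 33.7 CPM, above every reference value and under every LRO-like value (difference from the reference 0.81, SE 0.25, edgeR adjusted p = 0.0222). That call was lost without embryo 2 (0.67, edgeR adjusted p = 0.263) and without embryo 3 (0.75, edgeR adjusted p = 0.0745). Ccna2 was at 152, 112 and 157 CPM, overlapped with the reference (-0.30, SE 0.09, edgeR adjusted p = 0.0202), and was not called without embryo 1 (adjusted p = 0.0753) or embryo 2 (adjusted p = 0.267). Ccnd2 (419 to 517 CPM) and Ccnd3 (67.4 to 86.8 CPM) did not pass the test.

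LRO-like and axial-like cells also differed from each other, in 6 of the 9 genes against 9.65% of all genes. Ccnd1 and Cdkn1b were higher in LRO-like cells (5.76% of all genes were called higher), and Ccnd2, Ccna2, Ccnb1 and Mki67 were lower (3.89% of all genes were called lower). For 6 genes, Cdkn1a among them and Ccna2 not, the embryos' values of the 2 classes did not overlap, which held for 22.2% of all genes. The difference was 1.10 for Ccnd1 (SE 0.15, edgeR adjusted p = 2.04e-06), 1.25 for Cdkn1b (SE 0.24, edgeR adjusted p = 0.000303) and -0.78 for Ccnd2 (SE 0.19, edgeR adjusted p = 0.00522). It was -0.59 for Ccnb1 (SE 0.14, edgeR adjusted p = 0.0035), -0.52 for Mki67 (SE 0.11, edgeR adjusted p = 0.000685) and -0.36 for Ccna2 (SE 0.11, edgeR adjusted p = 0.0238). Without embryo 1 only Ccnd1 and Ccnd2 of these 6 were called, and Cdkn1b, Ccnb1, Mki67 and Ccna2 had adjusted p-values of 0.126, 0.205, 0.399 and 0.576. Ccnd2 was not called without embryo 2 (edgeR adjusted p = 0.0595) or embryo 3 (0.0696), nor Ccna2 without embryo 3 (0.215). The 3 comparisons share classes, so their values are set side by side and are not independent.

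The estimates depend on how the sums are scaled. Size factors by RLE in place of TMM moved the median of all genes by 0.12 in LRO-like cells and by 0.051 in axial-like cells (log2), and DESeq2 moved them by 0.15 and 0.14. The share of calls that were higher went from 52.4% to 70.3% (RLE) and 72.4% (DESeq2) in LRO-like cells, from 52.3% to 61.7% and 69.1% in axial-like cells, and from 59.7% to 70.0% and 66.9% between LRO-like and axial-like cells. Under both scalings each of the 8 calls in LRO-like cells was made in the same direction, while Ccna2 in axial-like cells was not called (adjusted p = 0.059 by edgeR with RLE and 0.111 by DESeq2).

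**Figure D3:**
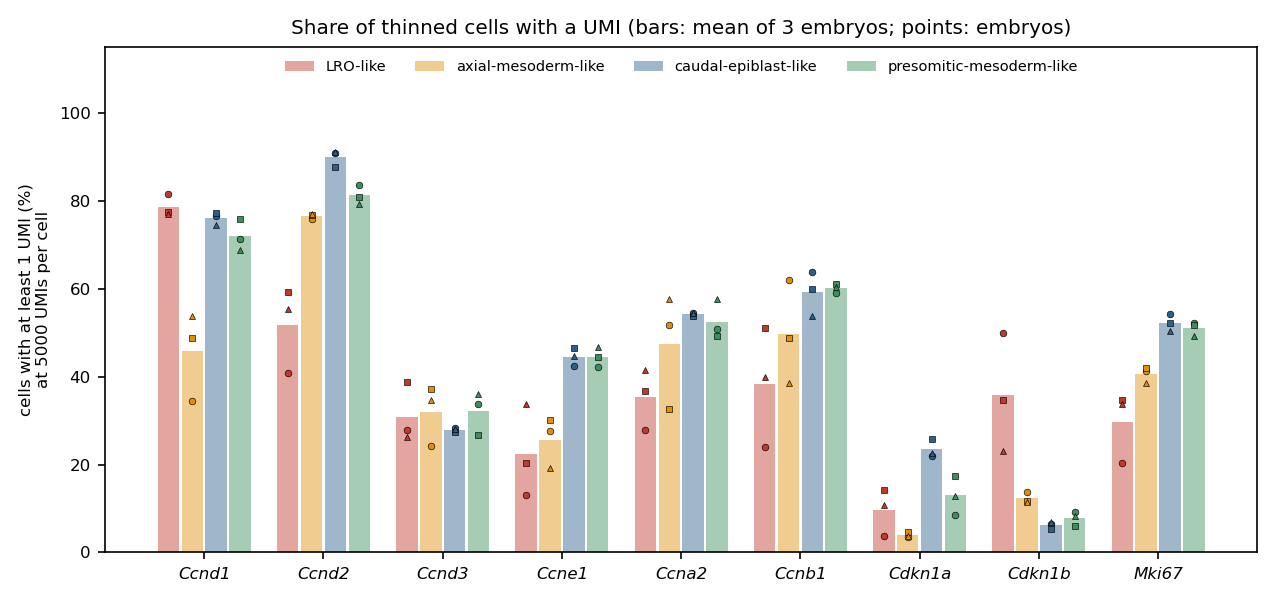
Percent of cells with at least 1 UMI of each gene after thinning to 5000 UMIs per cell (y axis), for LRO-like, axial-like, caudal-epiblast-like and presomitic-mesoderm-like cells (bars: mean of 3 embryos, circles, squares and triangles: embryos 1, 2 and 3). LRO-like cells have the lowest bars for Ccnd2, Ccne1, Ccna2, Ccnb1 and Mki67 and the highest for Cdkn1b.

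Shares of thinned cells weigh every cell equally, whereas deep cells weigh more in the sums. Ccnb1 was detected in 38.4% ± 13.6 (SD, n = 3) of LRO-like cells, and in 59.2% ± 5.09 and 60.2% ± 1.00 of caudal-epiblast-like and presomitic-mesoderm-like cells. Mki67 was detected in 29.6% ± 8.04 of LRO-like cells, 40.6% ± 1.84 of axial-like cells, and 52.2% ± 1.93 and 51.1% ± 1.59 of the reference cells. For Ccne1 the shares were 22.4% ± 10.6, 25.7% ± 5.74, 44.5% ± 2.03 and 44.5% ± 2.35 in the same order. The shares of Ccnd1, in contrast, were 78.7% ± 2.47 in LRO-like cells and 76.1% ± 1.48 and 72.0% ± 3.53 in the reference, and dropped to 45.7% ± 10.1 in axial-like cells. When the thinned cells were summed and tested, all 8 calls were made. The LRO-like differences were then -0.79 for Ccnb1 and -1.04 for Cdkn1a, close to those over all UMIs, and -0.96 for Ccna2, -1.08 for Mki67, -1.24 for Ccne1, -1.27 for Ccnd2, 0.58 for Ccnd1 and 2.66 for Cdkn1b.

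The cycle genes were spread unevenly over the LRO-like cells. As a wider measure, the UMIs of 24 other G2 and M phase genes (among them Top2a, Cdk1, Aurkb and Plk1) were counted in each thinned cell. LRO-like cells had a median of 4, 12 and 12 such UMIs in embryos 1, 2 and 3, and axial-like cells 22, 14 and 19.5. In the reference classes the medians ran from 18 to 20. At least 10 of these UMIs were found in 29.6%, 61.2% and 52.3% of LRO-like cells, in 62.8% to 75.9% of axial-like cells and in 83.5% to 95.3% of reference cells. The share of LRO-like cells was under that of every other class in each embryo. None of these UMIs was found in 17 of 168 LRO-like and 2 of 98 axial-like cells. The same was true of 0 of 2136 caudal-epiblast-like cells, which allows a share of up to 0.140%, and of 0 of 847 presomitic-mesoderm-like cells, which allows up to 0.354%. Ccna2, Ccnb1 or Mki67 was detected in 62.8% ± 14.3 (SD, n = 3) of LRO-like and 75.8% ± 13.6 of axial-like cells, and in 90.0% ± 1.82 and 88.7% ± 2.43 of the reference cells. At 5000 UMIs per cell both classes thus held cells with and cells without a UMI of these genes. The share that free RNA would give for them was not measured.

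**Figure D4:**
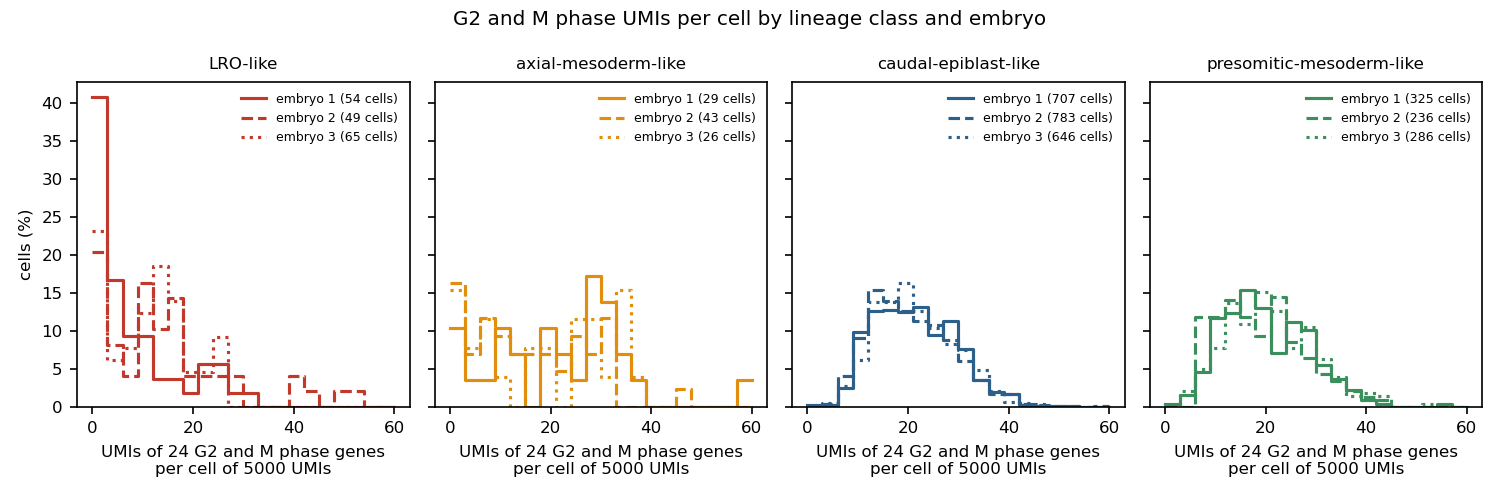
Percent of cells (y axis) by their UMIs of the 24 G2 and M phase genes after thinning to 5000 UMIs (x axis, bins of 3, the last of which holds all values from 57 up), with a line for each embryo. LRO-like cells pile up in the lowest bin and reach above 20, axial-like cells are spread over the range, and the reference cells form a single hump around medians of 18 to 20.

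Within LRO-like cells, Ccnd2 was found in a larger share of cells with late transcripts than of those without, least so in embryo 2. Ccnd1 was found on both sides. Among cells with some Ccna2, Ccnb1 or Mki67, 68.0%, 62.9% and 63.0% had a Ccnd2 UMI in embryos 1, 2 and 3. Among cells with none of them 5 of 29, 7 of 14 and 7 of 19 cells did. A Ccnd1 UMI was found in 22 of 25, 28 of 35 and 36 of 46 cells with, and in 22 of 29, 10 of 14 and 14 of 19 cells without these transcripts. Cdkn1b was found in fewer of the cells with these transcripts in embryo 1 (32.0% against 65.5%), and at close to the same share in embryo 2 (34.3% against 35.7%) and embryo 3 (23.9% against 21.1%). These shares rest on 14 to 46 cells each, which are not replicates, and the relations were not tested. In caudal-epiblast-like cells Ccnd2 was found in 87.9% to 90.9% of cells with and 86.3% to 93.6% of cells without the late transcripts.

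The depth of the cells moved with these values. LRO-like cells with Ccna2, Ccnb1 or Mki67 had a median of 38704, 21628 and 26637 UMIs before thinning in embryos 1, 2 and 3, and those without 13292, 11278 and 9300. Of LRO-like cells under 10000 UMIs (33 thinned cells), 36.4% had 1 of the 3 transcripts, of those from 10000 to 30000 (82 cells) 56.1%, and of those over 30000 (53 cells) 90.6%. In caudal-epiblast-like cells the 3 shares were 85.5%, 89.9% and 91.6%, and in presomitic-mesoderm-like cells 77.5%, 90.25% and 89.2%. The axial-like share rose as well, from 48.4% under 10000 UMIs (31 cells) to 84.9% and 85.7%. These bins pool the embryos in unlike numbers. Ccnd2 followed the same course in LRO-like cells, with 18.2%, 51.2% and 73.6%. Ccnd1 did not (78.8%, 80.5% and 75.5%), and Cdkn1b was at 39.4%, 41.5% and 22.6%. Markers of other lineages rose with depth too, by the highest score among lists other than the axial one and that of the cell's own class. Its median was 0.32, 0.46 and 0.71 in LRO-like cells, and 0.28, 0.41 and 0.55 in caudal-epiblast-like cells. A larger RNA content of dividing cells and droplets with more than 1 cell cannot be told apart by these values, and their part in the result was not tested. In cells of 10000 to 30000 UMIs alone, an alternative added after the data were seen, the LRO-like differences were -1.25 for Ccnb1, -0.98 for Ccna2 and Mki67, -1.12 for Ccnd2 and 2.72 for Cdkn1b, each larger than over all depths. Another alternative, also added after the data were seen, placed every cell that reached the LRO score in the LRO-like class. The median difference of the 24 G2 and M phase genes was then -0.40, against -0.70 in the main fit, and Ccnd1 was not called. The 104 cells that this added had a median of 40951 UMIs. They averaged 157 CPM of Ccnb1, 133 of Ccna2 and 150 of Mki67, above the LRO-like means of 133, 116 and 122. These means lay under those of both reference classes.

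**Figure D5:**
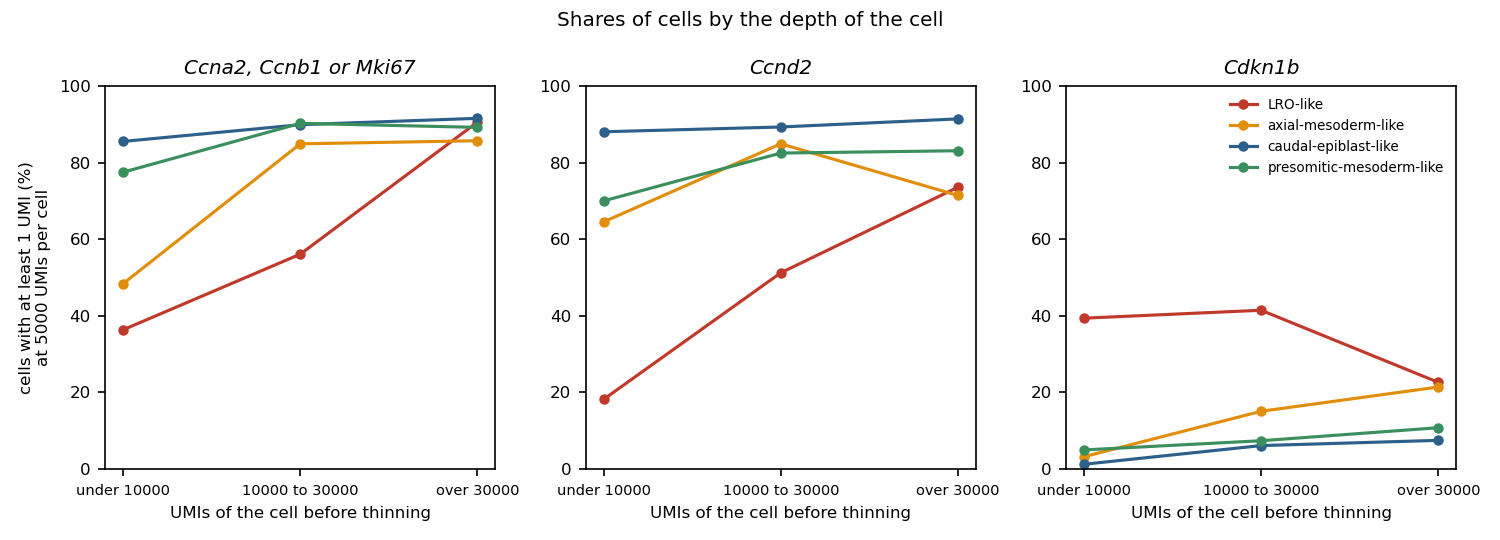
Percent of cells with at least 1 UMI after thinning to 5000 UMIs (y axis) by the UMIs of the cell before thinning (x axis), over the cells of the 3 embryos together. In LRO-like cells the shares of Ccna2, Ccnb1 or Mki67 and of Ccnd2 climb with depth (36.4% to 90.6% and 18.2% to 73.6%). The caudal-epiblast-like shares stay between 85.5% and 91.6%, and between 88.1% and 91.4%. The axial-like share of Ccna2, Ccnb1 or Mki67 also rises, from 48.4% under 10000 UMIs to 85.7% over 30000. The axial-like bin over 30000 UMIs holds 14 cells.

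The other genes of the cycle were counted in the same fits. Their lists were chosen for their role, with earlier results of these data known. Counts over both directions are to be read against the 30.8%, 13.4% and 9.65% of all genes called. Lower counts are to be read against the 14.7%, 6.39% and 3.89% called lower, and higher counts against the 16.2%, 6.99% and 5.76% called higher. These shares are for LRO-like cells, axial-like cells and LRO-like against axial-like cells. All 24 of the 24 G2 and M phase genes were lower in LRO-like cells, with a median difference of -0.70 where the median of all genes was -0.04. With every cell of the LRO list 22 were called lower, with a median of -0.40. Ckap2, a spindle protein, was at 13.0 CPM ± 0.99 (SD, n = 3) against 24.6 and 24.3 CPM in the reference (-1.06, SE 0.19), and Prc1, which bundles microtubules in cytokinesis, at 63.8 ± 2.15 against 108 and 108 CPM (-0.92, SE 0.14). In axial-like cells 3 of the 24 were lower, 1 higher and 20 not called (median -0.04, that of all genes -0.05). This count of lower genes ran from 0 without embryo 2 to 9 with classes set on thinned cells and 13 when the ciliary markers were left out. Without those markers the axial-like class was larger, with 34, 56 and 41 cells against 29, 43 and 26, and the LRO-like class smaller. Cenpa, the histone of centromeres, was lower in axial-like cells in the main fit (-0.44, SE 0.10), a call lost without embryo 2. Nusap1, a spindle protein, was the 1 gene called higher (0.52, SE 0.16). This call was lost without embryo 1, without embryo 3, at middle depth, with the stricter margin, and with thinned cells in the sums or for the classes. It was also lost without the ciliary markers, with only the 4 classes, and against caudal-epiblast-like or paraxial-like cells alone. Between LRO-like and axial-like cells 18 of the 24 were lower in LRO-like cells, with Prc1 (-1.07) and the mitotic kinase Aurka (-0.95) first. Prc1 was not called without embryo 1. This count fell to 4 without embryo 1, to 6 without the ciliary markers, to 8 with classes set on thinned cells, to 9 on sums of thinned cells and to 10 with every cell of the LRO list.

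Of the 20 S phase genes 14 were lower and none higher in LRO-like cells (median -0.41), and 6 in axial-like cells (median -0.23, down to 1 call without embryo 1, 2 without embryo 2 and 3 in cells of middle depth). Rrm2, which makes deoxynucleotides, was at 206 CPM ± 21.0 in LRO-like cells against 300 and 289 CPM (-0.68, SE 0.13), and Ung, a uracil glycosylase, at 61.87 ± 10.47 against 87.3 and 78.3 CPM (-0.56, SE 0.11). The helicase gene Hells was lower in axial-like cells (-0.71, SE 0.11), as was Rrm1 (-0.47, SE 0.13), which was not called when any of the 3 embryos was left out. Gins2 (-0.46) and Slbp (-0.31), genes of the replication fork and of histone mRNA, were lower in LRO-like than in axial-like cells, with 3 of 20 called. The RLE scaling and DESeq2 called 0 of these 3, and Gins2 and Slbp were not called without embryo 2 or without embryo 3. None of the 3 was called without the ciliary markers, on sums of thinned cells, with no filter on low counts or with only the 4 classes.

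Among 12 other cyclins and kinases, 8 were lower and 1, Ccnc, was higher in LRO-like cells. The lower count was 4 without embryo 1, 5 without embryo 2, 4 with DESeq2 and 4 on sums of thinned cells. The higher count was 0 without embryo 1, on sums of thinned cells, at middle depth, against caudal-epiblast-like cells alone and with every cell of the LRO list. Cdc25c, the phosphatase that activates the mitotic kinase, was at 16.6 CPM ± 0.52 against 27.0 and 29.5 CPM (-0.92, SE 0.15), and Wee1, the kinase that opposes it, at 38.9 ± 4.46 against 58.2 and 61.2 CPM (-0.76, SE 0.11). Cdk6, a partner of D-type cyclins, was at 39.3 ± 4.32 CPM in LRO-like and at 16.7 ± 8.29 CPM in axial-like cells (difference between them 1.07, SE 0.25, not called without embryo 2, and -1.41, SE 0.21, between axial-like cells and the reference). In axial-like cells 4 were lower, Cdc25c (-0.71) among them, and 1, Cdk7, was higher. The lower count was 2 without embryo 1, 2 at middle depth and 1 on sums of thinned cells, and Cdc25c was not called without embryo 2 or without embryo 3. The higher count was 0 when any of the embryos was left out. Ccnf, a cyclin of G2, was called lower in LRO-like than in axial-like cells (-0.83, SE 0.23), but not without embryo 1, without embryo 3 or on sums of thinned cells.

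Of 8 other inhibitors and pocket proteins, Cdkn1c, which encodes p57, was higher in both classes. It averaged 277 CPM ± 37.9 (SD, n = 3) in LRO-like and 548 ± 209 in axial-like cells, against 77.1 ± 20.2 and 86.5 ± 22.7 CPM in the reference. The differences were 1.59 (SE 0.23, edgeR adjusted p = 8e-07) and 2.66 (SE 0.24, edgeR adjusted p = 7.12e-11), and Cdkn1c was lower in LRO-like than in axial-like cells (-1.07, edgeR adjusted p = 0.01, not called without embryo 2 or without embryo 3). Cdkn1b was thus higher in LRO-like than in axial-like cells, and Cdkn1c was lower. Cdkn2a, at 7.73 CPM ± 6.19, was also called higher in axial-like cells (2.33, SE 0.77, edgeR adjusted p = 0.0379). It was not called when any embryo was left out, and its sign changed with the stricter margin between lists. Rb1, Rbl1, Rbl2 and the other inhibitors were not called in LRO-like cells.

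Of 12 E2F and Myc factors, E2f3, E2f4, E2f6 and Mycn were lower in LRO-like cells. These 4 calls of 12 were all lower, where 14.7% of all genes were called lower. All 12 had a difference under 0, with a median of -0.43 where the median of all genes was -0.04. The lower count was 7 with the embryo as a block, 3 with DESeq2 and 3 without embryo 1. Mycn was at 41.0 CPM ± 7.89 against 61.1 and 71.5 CPM (-0.88, SE 0.22) and, alone of the list, was lower in axial-like cells (-1.40, SE 0.31), a call lost without embryo 2. Of 10 p53 target genes, read here because Cdkn1a is another, Trp53inp1 was higher in LRO-like cells (14.7 CPM ± 4.02 against 2.87 and 2.29 CPM, difference 2.41, SE 0.30) and Phlda3 and Aen were lower. These 3 calls of 10 are close to the 30.8% of all genes called, and Phlda3 was not called without embryo 1 or without embryo 3. In axial-like cells Phlda3 (-1.99, SE 0.67) and Aen (-0.64, SE 0.19) were called lower, and neither was without embryo 1, without embryo 3, on sums of thinned cells or at middle depth. Between LRO-like and axial-like cells edgeR and DESeq2 called 0 genes of either list, with 2 and 1 genes at an unadjusted p under 0.05 by edgeR and 1 and 1 by DESeq2.

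Over the 13 classes with all 3 embryos, the genes fell into different orders, and most neighbours in an order overlapped. Cdkn1b had its highest mean in LRO-like cells (73.0 CPM ± 24.6, SD, n = 3), with no overlap with the next class, axial-like cells (29.7 ± 5.32). The other 11 classes ran from 12.8 CPM in endothelium-like to 21.6 CPM in cardiac-mesoderm-like cells, each overlapping with its neighbours. Ccnd1 also had its highest mean in LRO-like cells (421 CPM ± 79.1), overlapping with endothelium-like cells (334 ± 34.6), and fell to 41.8 ± 2.65 CPM in extraembryonic-endoderm-like cells, apart from the rest. Ccnd2 ran from 512 CPM ± 49.0 in caudal-epiblast-like to 62.3 ± 17.6 CPM in extraembryonic-endoderm-like cells, with LRO-like cells 10th of 13. The only neighbours in this order without overlap were the last pair.

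Ccnd3 divided the mesoderm. Among the 13 classes it was highest in endothelium-like (208 CPM ± 31.3) and mesenchyme-like cells (200 ± 11.0), followed without overlap by cardiac-mesoderm-like (131 ± 5.46) and allantois-like cells (129 ± 6.20), and then, again without overlap, by surface-ectoderm-like cells (111 ± 2.72). The remaining 8 classes, LRO-like cells among them, lay between 69.5 and 91.8 CPM. In erythroid-like cells, which only embryos 2 and 3 had in number, Ccnd3 stood at 335 and 331 CPM, while Ccnd1 (14.6 and 25.6 CPM), Cdkn1a (3.17 and 2.78 CPM) and Cdkn1b (7.09 and 6.31 CPM) were under every one of the other classes with at least 10 cells. Among the 13 classes Ccne1 was highest in neuroectoderm-like cells (132 CPM ± 3.23, under the 156 and 165 CPM of the erythroid-like cells) and lowest in endothelium-like cells (60.6 ± 4.04), and LRO-like and axial-like cells were 10th and 11th.

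Over the 13 classes the highest mean was 1.62 times the lowest for Ccna2, 1.66 times for Ccnb1 and 1.72 times for Mki67, the narrowest ranges of the 9 genes. Ccna2 ran from 188 CPM ± 14.0 in allantois-like cells to 116 ± 4.87 in LRO-like cells, Ccnb1 from 220 ± 30.2 in surface-ectoderm-like to 133 ± 22.8 in LRO-like cells, and Mki67 from 210 ± 1.36 in endothelium-like to 122 ± 18.9 in LRO-like cells. LRO-like cells were thus last of 13 in all 3, and did not overlap with the next class, extraembryonic-endoderm-like cells, for Ccna2 (129 ± 8.91) and Mki67 (144 ± 5.68), but did for Ccnb1 (152 ± 3.36). Axial-like cells were 10th, 7th and 11th. Outside the 13 classes, erythroid-like cells stood at 195 and 209 CPM for Ccna2, 209 and 237 for Ccnb1 and 254 and 267 for Mki67. The primordial-germ-cells-like cells of embryo 3, the only such sum, had 108.0 CPM of Ccna2, under the LRO-like mean. Cdkn1a was highest in caudal-epiblast-like cells (52.5 CPM ± 6.93), apart from definitive-endoderm-like cells (38.6 ± 5.58), and lowest in mesenchyme-like cells (5.29 ± 0.93).

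Over the 42 sums of an embryo and a class, the 2 genes with the highest Pearson correlation of log2 CPM with each of the 9 were taken from 15379 genes. For Cdkn1b these were Fbxo36 (r = 0.88) and Ccdc39 (0.88), for Ccnb1 Aurka (0.88) and Eef1g (0.87), for Mki67 Eprs (0.90) and Cks2 (0.89), and for Ccna2 Ppp2ca (0.92) and Bop1 (0.92). For Ccnd1 they were Marcksl1 (0.90) and St6gal1 (0.89), for Ccnd2 Igf1r (0.83) and Hmgb3 (0.82), and for Ccnd3 Grb2 (0.90) and Rap1b (0.89). Ccne1 was closest to Psmb3 (0.86) and Mif (0.84), and Cdkn1a to Dcxr (0.83) and Srcin1 (0.83). Sums of 1 embryo share a library, and sums of 1 class share their markers, so the 42 points are not independent.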

How the data were processed

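Single-cell suspensions of 3 wild-type embryos were each loaded as 1 10x 3′ v3 library. The study reports that extraembryonic tissue was removed. Extraembryonic-endoderm-like cells still numbered 285, 1278 and 1007 in embryos 1, 2 and 3, and erythroid-like cells 2, 848 and 307. The authors aligned the reads and counted UMIs with Cell Ranger 3.1.0 against mm10 with an EGFP sequence added, and the values as deposited are raw, whole UMI counts per gene and barcode, with no normalization. No cell annotation was used. Embryonic day and somites are as labelled, and strain and sex are as the study reports them. The methods of the study give a narrower range of somites than the label. The 9 genes, the gene lists and the marker lists were chosen with earlier results of these data known.

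Cells with at least 1500 genes, at most 8500, 7500 and 8500 genes in embryos 1, 2 and 3, and between 0.5% and 10% mitochondrial UMIs were kept. For each marker list a cell was scored by the share of its markers with a UMI, rarer markers weighing more. It was placed in the highest class where that score reached 0.4 and led the next by 0.05, with the axial list set aside in cells that reached the LRO score, a rule chosen after the data were seen. T and Foxa2, each on 2 lists, were not scored. No doublet caller was run, and doublets were limited only by the gene maximum and by the lead between lists. UMIs were summed per embryo and class where at least 10 cells were present (42 sums). The 3 embryos are separate animals.

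The sums were tested with edgeR 4.0.16 in R 4.3.3 (filterByExpr, TMM scaling, quasi-likelihood F test, all classes in 1 fit, p-values adjusted by Benjamini and Hochberg over 15379 genes, threshold 0.05). The reference was the mean of 2 coefficients. Standard errors were taken as the absolute log2 difference divided by the root of F. The fit was tested on simulated sums with 200 genes changed in LRO-like cells. It recovered 92% of 2-fold and 100% of 4-fold changes, and 7.25% of calls were false at the threshold of 0.05. The simulation gave every gene the same spread and drew the sums of an embryo independently. Changed genes were drawn only from those above a floor of expected UMIs in LRO-like sums. Recovery for low genes and for axial-like cells was not tested. Classes of 1 number come from the same embryo, and the correlations of their deviations from the class means ran from 0.0318 to 0.188 over the 15 pairs of sums compared. The embryo as a block, DESeq2 1.42.0, other scalings, filters, markers and references, thinned sums and leaving out each embryo were alternatives. From each of 6 lists the 2 genes with the largest called difference and the same sign in every embryo are named, and for each of the 9 genes the 2 most correlated genes (log2 CPM, prior count 1). Genes mentioned besides these were chosen after their values were seen. Depth per library ran from 149341900 to 207961733 UMIs. Limits given for a count of 0 cells cover counting error only. Standard errors, p-values and intervals of 2 SE come from the fit, in which all classes share the estimate of the spread. They do not measure the spread between embryos within the LRO-like or the axial-like class alone.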

Additional observations from a re-analysis of the deposited data

How the results depend on the processing

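Of the calls for the 9 genes, 157 of 171 alternative values in the LRO-like comparison, 139 of 171 in the axial-like one and 103 of 144 between LRO-like and axial-like cells kept their direction and their side of the threshold. With the embryo as a block, pairing the sums of an embryo, 8, 5 and 6 of the 9 genes were called, as without it, and 5411, 2447 and 1807 of all genes. With all 3 embryos, the gene counts of the alternatives stayed within 1.5 times those of 4741, 2057 and 1484, except 3075, 1166 and 763 on sums of thinned cells, 3671 in axial-like cells and 367 between the classes without the ciliary markers, and 1333 in axial-like cells of middle depth. Leaving out each embryo gave 3019 to 3768 genes in LRO-like cells with 7 to 8 of the 9 called, 1198 to 1424 in axial-like cells with 3 to 4, and 741 to 1160 between them with 2 to 5. Of the 9 genes, 3 were called in axial-like cells on thinned sums, and between the classes 3 with the stricter margin and 2 without the ciliary markers. Fewer embryos and fewer UMIs give less power by construction. Without the ciliary markers the make-up of both classes also changed, with a smaller LRO-like and a larger axial-like class. Otherwise the cause was not tested.

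The signs that changed were those of differences near 0, with 2 exceptions, Cdkn1a in LRO-like cells against paraxial-mesoderm-like cells (0.53) and Cdkn2a in axial-like cells with the stricter margin (-0.60). In LRO-like cells Ccnd3 was at 0.024 with cells nearly without mitochondrial UMIs kept, 0.098 by DESeq2, 0.11 by RLE, 0.068 with only the 4 classes, 0.076 against caudal-epiblast-like cells, and from -0.16 to 0.13 without an embryo. In axial-like cells Ccnd2 was at 0.015 without a gene maximum, 0.0082 by DESeq2, 0.0031 by RLE, 0.12 and 0.58 against presomitic-mesoderm-like and paraxial-mesoderm-like cells, 0.15 at middle depth, and from -0.12 to 0.020 without an embryo. There Ccnd3 was at 0.24 without a gene maximum, 0.0032 by DESeq2, 0.0041 by RLE, 0.044 against caudal-epiblast-like cells, 0.15 at middle depth, and from -0.22 to 0.041 without an embryo. Between the classes Ccnd3 was at -0.065 with classes from thinned cells, -0.11 without the ciliary markers, -0.25 without a gene maximum, -0.13 on thinned sums and -0.23 at middle depth. Ccne1 was there at 0.00015 without a gene maximum, 0.055 with cells nearly without mitochondrial UMIs kept, 0.048 by DESeq2, 0.055 by RLE, 0.029 with no filter, 0.034 with only the 4 classes, 0.0090 with every cell of the LRO list, and from -0.15 to 0.27 without an embryo. With every cell of the LRO list, an alternative added after the data were seen, Ccnd1 in LRO-like cells was not called (0.22) and Cdkn1b was at 1.63. The share of cells was lower in LRO-like cells than in the reference for 6 genes after thinning and for 8 before it.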

Other observations

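Of the kept cells, 4446 were placed in no class. In these Cdkn1b averaged 17.5 CPM ± 0.74 (SD, n = 3 embryos), Cdkn1a 22.6 ± 1.27, Ccnd1 247 ± 24.9, Ccnd2 380.0 ± 40.4, Ccna2 166 ± 8.68, Ccnb1 186 ± 16.6 and Mki67 175 ± 8.47. The LRO score was reached by 104 cells that did not lead over other lists, with a median of 40951 UMIs against 18316 in LRO-like cells. Of these, 37 were among the cells in no class and 67 were placed in another class, the reference classes included. The 104 cells had 30.8 CPM ± 12.7 of Cdkn1b, 297 ± 35.7 of Ccnd1, 278 ± 67.3 of Ccnd2, 133 ± 12.2 of Ccna2, 157 ± 32.2 of Ccnb1 and 150 ± 30.4 of Mki67. These values lay between the LRO-like and the reference means for Cdkn1b, Ccnd1, Ccna2, Ccnb1 and Mki67. Of all cells, 55 lay within 0.1 under the LRO score needed and 22 within 0.1 over it.

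Transcripts were measured, and no protein, phase or division rate. With 181 LRO-like and 98 axial-like cells, low genes such as Cdkn1a rest on few UMIs per embryo (25 to 41 and 3 to 7). The classes were rebuilt from markers and were not compared with an annotation of these cells. All cells come from a single stage and genotype.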
